A study of Sus scrofa with 13 samples.

Results

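The comparison described here asks which muscle genes differed between pigs with high and low weight of loin by an amount that was not the same in Hampshire and in Pietrain pigs. All 13 pigs of the series were used. Every pig was female, 6 months of age and sampled in the longissimus lumborum, the long back muscle that makes the loin. The Hampshire groups held 3 pigs with high and 3 with low weight of loin, and the Pietrain groups held 4 pigs with high and 3 with low weight of loin. The groups were formed from loin weight itself, in unrelated pigs of 1 test station, so no treatment was given, and each pig is a separate animal. By the paper's group means, the high and low groups lay further apart in loin weight in Hampshire than in Pietrain. Ham weight differed significantly only in Hampshire there. Breed and the size of this gap cannot be told apart here, and the part of the gap in the results was not tested. The number of reads counted on each gene was joined over both breeds by Ensembl identifier, and the 4 groups were fitted together with edgeR's quasi-likelihood test. The value tested for each gene was the high minus low difference in Hampshire less the high minus low difference in Pietrain, on the log2 scale. It is called the difference between the breeds below, and the 2 differences it is made of are called the Hampshire effect and the Pietrain effect. A gene is said to be called when its Benjamini-Hochberg adjusted p over all tested genes was under 0.05.

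Growth of skeletal muscle depends on how much protein the fibres make and how much they break down. The insulin-like growth factors signal through AKT and the mTOR kinase, which raises translation by releasing the cap-binding factor from the 4E-BP repressors, while FOXO and glucocorticoid receptor target genes drive protein loss. The loin is a mostly fast muscle that runs on glycogen, and the AMPK complex, the glycogen enzymes and the calcium release channel RYR1 are known for their part in pig meat traits. The domesticated transposon gene ZBED6 is known in pig muscle as a repressor of IGF2.

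The counted reads per pig ranged from 11312755 to 20134612. Expression levels are given as CPM, the counts divided by library size on a common scale after TMM normalization. In each of the 15 pairs of pigs that share a group the counts differed beyond sampling noise, so all 13 were kept as separate replicates. The first principal component of the log2 levels held 45.06% of the variance, and the Hampshire pigs with high weight of loin lay at 67.3 to 95.0 on it, against 3.77 to 23.5 in the other Hampshire group. Pietrain pigs lay between -62.8 and -6.04, where the value nearest 0 was that of Pietrain high pig 7. The fast fibre contractile genes, which should lead in a loin muscle, summed to between 92430 and 163200 CPM in every pig. The slow fibre contractile genes summed to 33.2 CPM in the lowest Pietrain low pig and to 17880 CPM in the highest Hampshire high pig. High and low pigs of 1 breed were counted in the same table and the breeds in separate tables, so breed and table cannot be told apart, while each effect was formed within 1 table.

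Of 12831 genes tested, 757 had an effect that differed between the breeds, which is 5.9% of them. The difference was above 0 in 48.9% of all tested genes. It was positive (Hampshire effect above the Pietrain effect) in 215 called genes (1.68%) and negative in 542 (4.22%). In the same fit the Hampshire effect was called in 2541 genes (19.8%), 7.47% of all genes being higher and 12.3% lower with high weight of loin, and the Pietrain effect in 0 genes, with a smallest adjusted p of 0.781 by edgeR. At an unadjusted p under 0.05 there were 727 genes for the Pietrain effect, DESeq2 called 5 and limma-voom with sample weights called 0. The paper fitted each breed alone with DESeq2. It reports differing genes in both breeds, and more of them in Pietrain than in Hampshire. The absence of called genes for the Pietrain effect thus holds for the fit used here, and the reason for the contrast with the paper was not tested. The Hampshire effect was the larger of the 2 in size in 743 of the 757 called genes, and in 9016 of all 12831 tested genes. Among the 215 genes with a positive difference, the median Hampshire effect was 0.97 and the median Pietrain effect -0.23. Among the 542 genes with a negative difference, these medians were -1.66 and 0.05. The Hampshire high group had the highest mean of the 4 groups in 192 of the 215 genes and the lowest mean in 526 of the 542. Over all 12831 tested genes it had the highest mean in 4982 and the lowest in 4893. In most called genes it was thus the 3 Hampshire pigs with high weight of loin that stood apart. These genes were chosen by a contrast that includes that group, and its mean was also at 1 end in most tested genes. The counts moved with single pigs: 379 genes were called without Hampshire low pig 3, 424 without Hampshire high pig 9 and 1052 without Pietrain high pig 6. The count lay between 487 and 494 without Hampshire high pig 10, Hampshire low pig 2 or Pietrain low pigs 5 or 8. The positive calls numbered 38 without Hampshire low pig 3, 44 without Hampshire high pig 9 and 326 without Pietrain high pig 7. They numbered 84 to 119 without Hampshire high pig 10, Hampshire low pig 2, Pietrain high pigs 1 or 2, or Pietrain low pigs 5 or 8. The negative calls numbered 341 without Hampshire low pig 3.

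**Figure D1:**
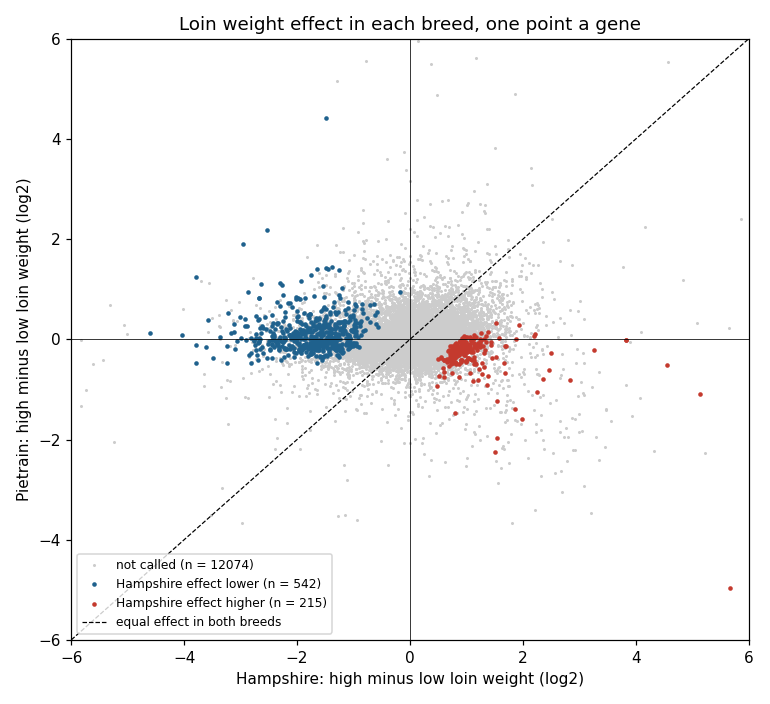
Loin weight effect (log2, high minus low) in Hampshire on the horizontal axis and in Pietrain on the vertical axis, 1 point for each of the tested genes, with 35 genes beyond the axes. The 542 called genes with a negative difference lie left of the dashed line of equal effect and the 215 with a positive difference right of it, both spread along the Hampshire axis and close to 0 on the Pietrain axis.

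The difference between the breeds was related to the length of a gene from start to end on the assembly. Among the 9233 genes with a length and at least 10 counts in every pig, its median was 0.40 in the 1847 shortest genes (up to 6.334 kb) and -0.29 in the 1847 longest (56.72 kb and over). Called genes with a positive difference made up 6.66% of these shortest genes and 0.487% of the longest, and those with a negative difference 0.866% and 10.4%. Within pigs, the level of a gene relative to its mean over all pigs had a Spearman correlation with gene length of -0.42 to -0.35 in Hampshire high pigs. It was -0.10 to 0.03 in Hampshire low pigs, 0.22 to 0.30 in Pietrain low pigs and 0.27 to 0.35 in Pietrain high pigs other than pig 7, which had -0.04. These correlations run across genes that share a library and are given as a description. The part of gene length in the results was not tested. The adjusted p after the length trend of each pig was taken out (over genes with at least 10 counts in every pig) is called the length-adjusted p. It is given for most called genes described below and for each of them where it was 0.05 or more. ZBED6, TTBK2, RICTOR, KMT2C, CLOCK, HLF and THSD4 did not reach 10 counts in every pig and have no such value. SMYD1, PPP1R3A and MYPN have no known length, so no trend was taken out for them. With this setting 495 genes were called, 103 positive and 392 negative, and 389 of the 622 called genes that could be tested there were called again.

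**Figure D2:**
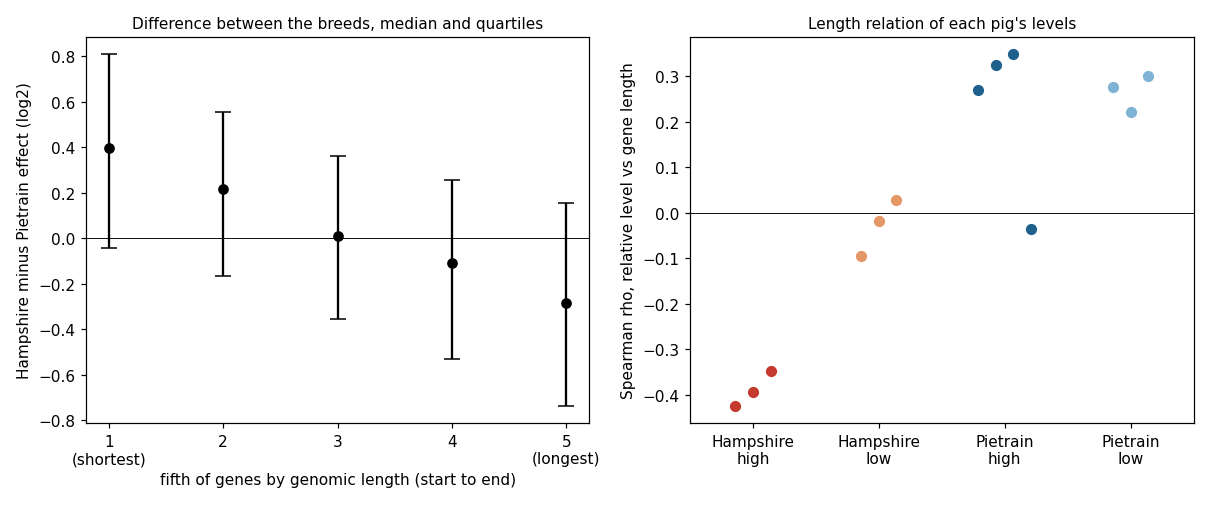
Left, difference between the breeds in the loin weight effect (log2) in 5 groups of about equal size by genomic length, with the median as a point and the quartiles as bars. Right, Spearman correlation of each pig's gene levels, relative to the mean of all pigs, with gene length, 1 point a pig: the 3 Hampshire high pigs lie lowest, between -0.42 and -0.35.

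The named genes with the strongest evidence of a difference were all negative. They include regulators of growth signalling, of protein turnover and of the sarcomere. ZBED6 (ENSSSCG00000015274, chr9:70869462-70872407 on Sscrofa10.2) was counted at 2.45, 0.636 and 0.959 CPM in the Hampshire high pigs and at 23.3, 20.9 and 23.7 CPM in the Hampshire low pigs. Its levels were 50.1, 36.9, 32.1 and 24.3 CPM in Pietrain high pigs and 29.6, 26.3 and 45.6 CPM in Pietrain low pigs. The Hampshire high pigs lay far below every other pig, and the Pietrain groups overlapped. The Hampshire effect was a 16.3-fold lower level (log2 -4.03 ± 0.41, SE), the Pietrain effect 0.08 ± 0.31, and the difference -4.11 ± 0.52 (adjusted p 0.00251). ZBED6 is known to lie within an intron of another gene, ZC3H11A, so reads counted on it may come from either gene, and it had under 10 counts in at least 1 pig, so no length-adjusted p was computed.

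APC (ENSSSCG00000014207, chr2:121534758-121575617), the scaffold of the complex that degrades beta-catenin, had 3.47, 2.91 and 2.62 CPM in Hampshire high pigs and 18.9 to 22.9 CPM in Hampshire low pigs. All 7 Pietrain pigs had between 20.4 and 39.2 CPM of APC, with no gap between their groups. The APC difference was -2.73 ± 0.36 (adjusted p 0.00251, length-adjusted p 0.00138).

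Genes of protein turnover and intracellular signalling were also lower in Hampshire high pigs. CAND1, which exchanges the substrate receptors of cullin ubiquitin ligases, had 2.11 to 4.55 CPM in Hampshire high pigs against 18.4 to 21.2 CPM in Hampshire low pigs. In Pietrain pigs CAND1 had 6.49 to 11.6 CPM, and its difference was -3.18 ± 0.41 (adjusted p 0.00251, length-adjusted p 0.00197). FBXL17, an F-box protein that brings substrates to such a ligase, was 3.79-fold lower with high weight of loin in Hampshire, with a difference of -2.02 ± 0.27 (adjusted p 0.00251). JAK1, the kinase bound to many cytokine receptors, had 4.73 to 7.42 CPM in Hampshire high pigs, 19.0 to 23.6 CPM in Hampshire low pigs and 18.0 to 26.6 CPM in Pietrain pigs. PRKAR2A, a regulatory subunit of protein kinase A, was 4.26-fold lower with high weight of loin in Hampshire (difference -2.17 ± 0.29, adjusted p 0.00251). The other negative genes with the smallest p, SMYD1, TTBK2, PIP4K2B, KIF1B and LIMCH1, had differences between -3.42 and -1.88. In each of the negative genes named so far the Hampshire high pigs lay below the Hampshire low pigs, and each was called in all of the 13 fits that left out 1 pig.

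**Figure D3:**
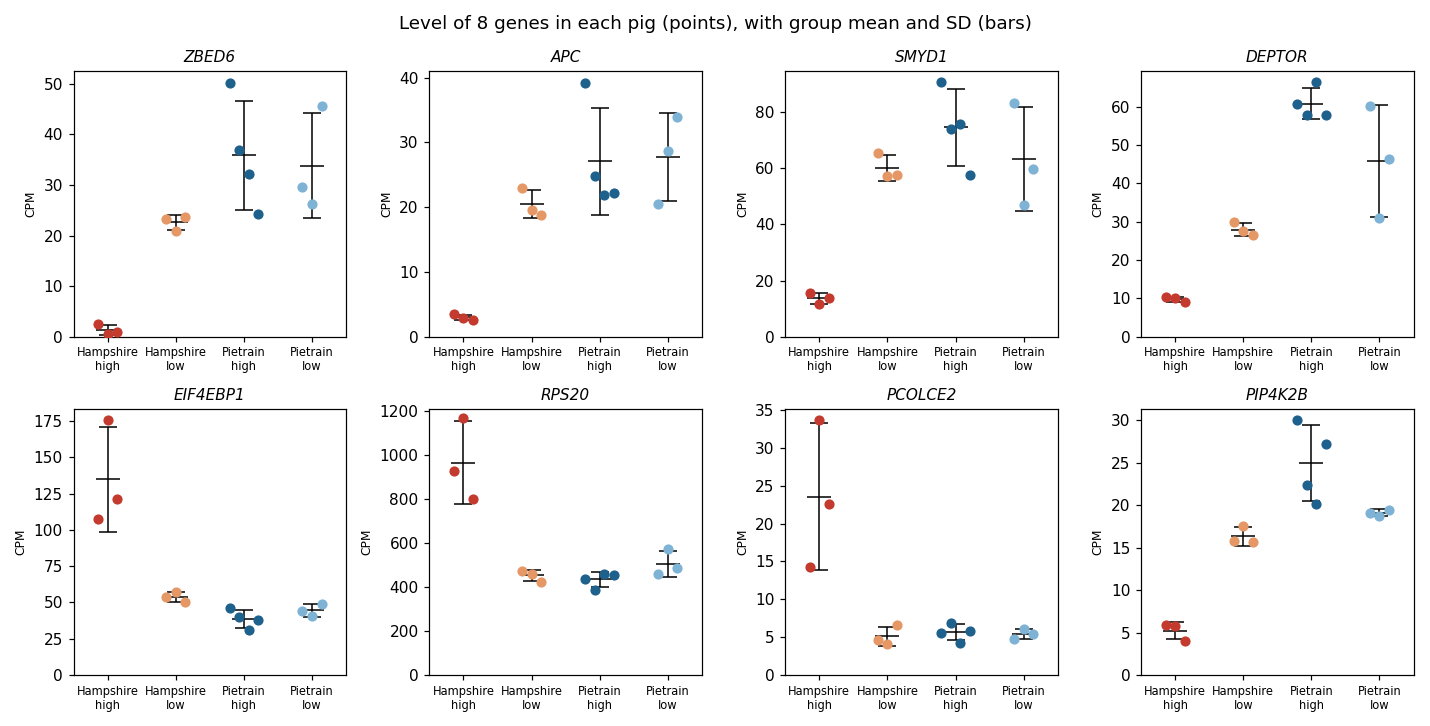
CPM of 8 genes in each pig, points by group, with the group mean and SD as bars on axes that start at 0. In ZBED6, APC, SMYD1, DEPTOR and PIP4K2B the 3 Hampshire high pigs lie below all others, and in EIF4EBP1, RPS20 and PCOLCE2 above all others.

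Genes of the translation machinery made up the largest group with a positive difference. Of 56 tested cytosolic ribosomal protein genes, 44 were called with a positive difference and 0 with a negative one, beside 1.68% positive over all genes, and all 56 differences were above 0. Their median difference was 1.11, with a median Hampshire effect of 0.99 and a median Pietrain effect of -0.16, against a median difference of -0.02 over all tested genes. In all 56 genes the Hampshire high pigs lay above the Hampshire low pigs, while over all tested genes these groups lay apart in 44.9%. The Pietrain effect was below 0 in 44 of the 56. Together these genes took 3.15% to 3.65% of the counts in Hampshire high pigs and 1.95% to 2.42% in the other 10 pigs, with no overlap. They are short genes, with a median length of 3.664 kb, and with the length trend taken out 8 of the 56 were called and the median difference was 0.72. The count of calls also moved with single pigs, between 6 without Hampshire low pig 3 and 42 without Pietrain high pig 7. It was 9 without Hampshire high pig 9, 12 without Pietrain low pig 5, 13 without Hampshire low pig 2, and 18 each without Pietrain high pig 2 and Pietrain low pig 8. It was 20 and 21 without Pietrain high pig 1 and Hampshire high pig 8.

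**Figure D4:**
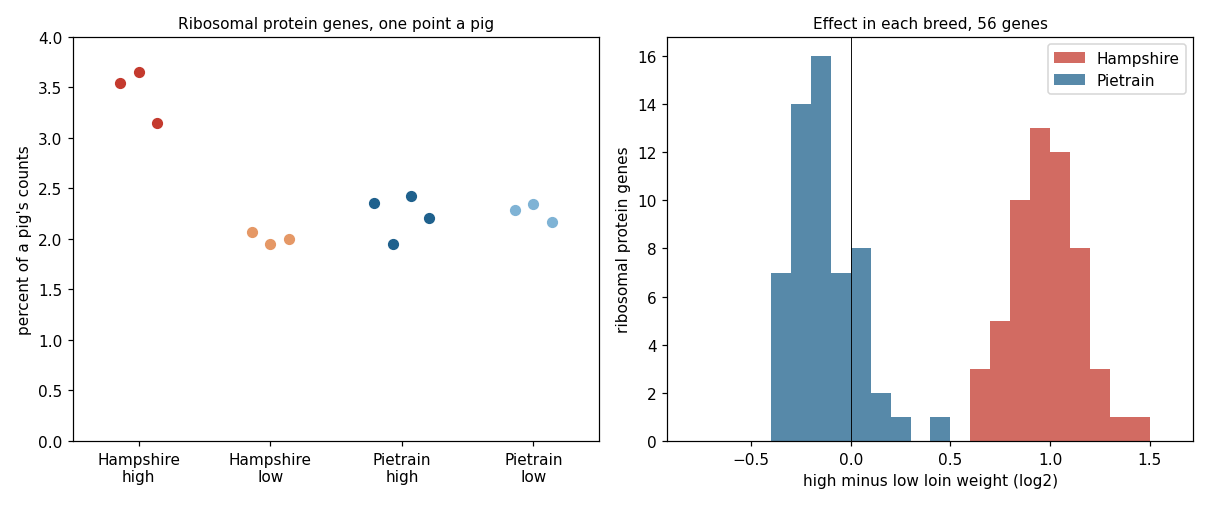
Left, percent of a pig's counts on the cytosolic ribosomal protein genes, 1 point a pig, where Hampshire high pigs have 3.15% to 3.65% and all other pigs at most 2.42%. Right, histogram of the Hampshire and Pietrain effects (log2) of the 56 tested genes, with the Hampshire effects from 0.67 to 1.43 and the Pietrain effects from -0.39 to 0.41.

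RPS20 (ENSSSCG00000006249, chr4:82679936-82681181), a protein of the small ribosomal subunit, had 929, 1171 and 799 CPM in Hampshire high pigs and 474, 462 and 425 CPM in Hampshire low pigs. Pietrain high pigs had 436, 389, 459.8 and 456 CPM and Pietrain low pigs 460.4, 574 and 487.5 CPM. The high pigs thus lay above the low pigs in Hampshire and below them in Pietrain, there by a narrow margin, and the difference was 1.31 ± 0.24 (adjusted p 0.00796, length-adjusted p 0.0481). RPL11, of the large subunit, had 592 to 784.5 CPM in Hampshire high pigs and 301 to 430.5 CPM in the other pigs (difference 1.23 ± 0.23, adjusted p 0.00894, length-adjusted p 0.0393). RPL38 and RPS26 had differences of 1.45 and 1.26, and the length-adjusted p was 0.0477 for RPL38 and 0.0725 for RPS26. Ribosomal protein genes have many near-identical processed copies in mammalian genomes, so how reads were shared among copies is uncertain for each of them.

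EIF4EBP1 (ENSSSCG00000022301, chr15:55557785-55560890) encodes 4E-BP1, the repressor of cap-dependent translation that mTOR inactivates. It had 107, 176 and 121 CPM in Hampshire high pigs and 53.9, 57.1 and 50.5 CPM in Hampshire low pigs. Pietrain high pigs had 46.2, 39.8, 30.7 and 37.6 CPM and Pietrain low pigs 44.1, 40.4 and 49.0 CPM, which overlapped. Its level was 2.50-fold higher with high weight of loin in Hampshire, the Pietrain effect was -0.21 ± 0.19, and the difference was 1.53 ± 0.28 (adjusted p 0.00793, length-adjusted p 0.0222). Other positive genes act on the endoplasmic reticulum: SSR4, a subunit of the translocon-associated complex, with a difference of 1.55 ± 0.30 (length-adjusted p 0.0222), and USE1, a SNARE of retrograde transport, with 1.34 ± 0.26 (length-adjusted p 0.0494). The annotated 5.8S ribosomal RNA gene (ENSSSCG00000020149) had 147.8, 91.9 and 164 CPM in Hampshire high pigs and 12.4 to 36.4 CPM in all others. Ribosomal RNA is present in many copies, so that count is uncertain. DDB2, a DNA damage recognition protein, had 25.9 to 33.7 CPM in Hampshire high pigs and 11.6 to 12 CPM in Hampshire low pigs, against 17.6 to 48.5 CPM in Pietrain pigs, and was the named positive gene with the least change under the length setting (difference 1.87 against 1.87, length-adjusted p 0.00832).

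Nuclear subunits of the respiratory chain showed mostly positive differences with few calls. Of 66 tested nuclear subunits of the respiratory chain and ATP synthase, 8 were called positive and 0 negative, beside 1.68% positive over all genes. The difference was above 0 in 62 of them, beside 48.9% of all genes, and its median was 0.78, with a median Hampshire effect of 0.60 and Pietrain effect of -0.13. The 8 called genes were NDUFA2, NDUFB1 and NDUFB10 of complex I, NDUFA4, COX6A1, COX6C and COX7B of complex IV, and ATP5I of ATP synthase. NDUFA4 was counted in the complex I list. NDUFA2 (ENSSSCG00000014371, chr2:148302944-148304923) had 79.5, 91.0 and 66.5 CPM in Hampshire high pigs and 49.0, 35.0 and 31.8 CPM in Hampshire low pigs. In Pietrain it had 31.9, 35.6, 27.6 and 35.1 CPM in high pigs and 43.9, 45.4 and 37.2 CPM in low pigs, so the groups lay apart in both breeds and in opposite order. The NDUFA2 difference was 1.40 ± 0.27 (adjusted p 0.0101, length-adjusted p 0.0234). It was the member called in all 13 fits that left out a pig. The count for these subunits was 1 without Hampshire high pig 9, Hampshire low pig 2 or Hampshire low pig 3, and 2 without Pietrain high pig 1 or Pietrain low pig 8. It was 3 without Hampshire high pig 8 or Pietrain low pig 5, 5 without Pietrain high pig 2, and 12 without Hampshire low pig 1 or Pietrain high pig 7. With the length trend taken out, 1 complex I and 1 complex IV subunit were called, NDUFA2 and COX6C. The length-adjusted p was 0.0725 for NDUFA4, 0.142 for NDUFB10, 0.0799 for COX6A1, 0.109 for COX7B, 0.0529 for ATP5I and 0.156 for NDUFB1.

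The 13 mitochondrially encoded subunits had 0 calls and a median difference of 0.05, and their share of counts was 12.5% to 17.3% in Hampshire high pigs and 19.0% to 20.2% in Hampshire low pigs. It was 11.97% to 16.8% in Pietrain high pigs and 16.1% to 17.8% in Pietrain low pigs. The mitochondrial ribosomal proteins had 6 positive calls among 58 (MRPL13, MRPL17, MRPL52, MRPL55, MRPS7 and MRPS14), beside 1.68% over all genes, and a median difference of 0.52. The length-adjusted p was 0.0129 for MRPL13 and at least 0.0855, the value of MRPL52, for the others. None of the 6 was called in every fit that left out a pig, and the count was 0 without Hampshire high pig 9, Hampshire low pigs 2 or 3, Pietrain high pig 2 or Pietrain low pig 8. The 15 citric acid cycle enzymes had 0 calls and a median difference of -0.17. Of 18 tested enzymes of mitochondrial fatty acid oxidation, only ECHS1, the enoyl-CoA hydratase, was called (difference 1.03 ± 0.25, adjusted p 0.0260), in 4 of the 13 fits that left out a pig, and its length-adjusted p was 0.0530.

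Within the AKT and mTOR pathway, 1 of 21 tested genes (EIF4EBP1) was called positive and 3 (DEPTOR, RICTOR and EIF4EBP2) negative, beside 1.68% and 4.22% over all genes, and the median difference of the list was -0.31. DEPTOR (ENSSSCG00000005998, chr4:19989287-20171545), an inhibitor bound to mTOR, had 10.3, 10.1 and 8.95 CPM in Hampshire high pigs and 29.8, 27.5 and 26.4 CPM in Hampshire low pigs. It had 60.8, 57.8, 66.5 and 57.8 CPM in Pietrain high pigs and 60.3, 30.9 and 46.4 CPM in Pietrain low pigs. The high pigs had the lower DEPTOR levels in Hampshire, and in Pietrain the groups overlapped with the 2 lowest values in the low group. The DEPTOR difference was -1.92 ± 0.29 (adjusted p 0.00386, length-adjusted p 0.00569). RICTOR, the defining subunit of mTOR complex 2, had 1.29, 0.818 and 0.639 CPM in Hampshire high pigs and 4.81 to 6.31 CPM in Hampshire low pigs. Pietrain pigs had 5.85 to 6.43 CPM of RICTOR, except high pig 7 with 3.00 CPM, and its difference was -2.46 ± 0.46 (adjusted p 0.00888). EIF4EBP2, a close relative of 4E-BP1, had a difference of -1.76 ± 0.41 (adjusted p 0.0228, length-adjusted p 0.0234), opposite in sign to EIF4EBP1. MTOR itself was not called, with 25 to 33.5 CPM in Hampshire high pigs, 38.6 to 44.7 CPM in Hampshire low pigs and a difference of -0.61 ± 0.30 (adjusted p 0.248).

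Among 10 tested IGF ligands, receptors and binding proteins, IGF2R was called, 10% of the list beside 4.22% negative over all genes (difference -1.58 ± 0.34, adjusted p 0.0169). This receptor carries IGF2 to the lysosome. It had 12.4 to 13.8 CPM in Hampshire high pigs, 21.9 to 29.9 CPM in Hampshire low pigs, 36.7, 30.8, 16.1 and 30.9 CPM in Pietrain high pigs and 17.3 to 21.1 CPM in Pietrain low pigs. Its adjusted p was 0.0504 without Hampshire low pig 3 and its length-adjusted p 0.0529. IGF1R had 0 counts in every pig under its symbol. The 29 tested genes of myostatin, BMP and SMAD signalling had 0 calls, and myostatin itself (MSTN) had effects of -0.61 in Hampshire and -0.53 in Pietrain, with a difference of -0.08 ± 0.53. The 11 tested myogenic transcription factors also had 0 calls and a median difference of -0.43.

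Of 15 tested FOXO, glucocorticoid response and atrophy genes, 3 were called, all negative, beside 4.22% negative over all genes, and the median difference was -0.51. FOXO3 (ENSSSCG00000004387, chr1:83886632-84048935), a transcription factor of the muscle atrophy programme, had 3.75, 2.82 and 3.07 CPM in Hampshire high pigs and 11.4, 9.77 and 10.1 CPM in Hampshire low pigs. In Pietrain the levels were 11.7, 7.13, 3.70 and 10.6 CPM in high pigs and 5.09, 3.32 and 5.24 CPM in low pigs. The order of the groups was clear in Hampshire, and in Pietrain high pig 6 lay within the low group. The Hampshire effect was -1.69 ± 0.36, the Pietrain effect 0.86 ± 0.33 and the difference -2.55 ± 0.48 (adjusted p 0.00993, length-adjusted p 0.0202). FBXO32, the atrophy ubiquitin ligase atrogin-1, had effects of -1.26 in Hampshire and 1.40 in Pietrain, where high pig 7 had 113 CPM and the other Pietrain pigs 15.4 to 44.9 CPM. Its difference of -2.65 ± 0.71 (adjusted p 0.0421) was called in 4 of the 13 fits that left out a pig, with an adjusted p of up to 0.104 without Hampshire high pig 9. NR3C1, the glucocorticoid receptor, had 10.4 to 14.5 CPM in Hampshire high pigs and 32.8 to 39.7 CPM in Hampshire low pigs. Its difference was -1.23 ± 0.29 (adjusted p 0.0259, length-adjusted p 0.0602), with an adjusted p of 0.0551 without Hampshire high pig 10, 0.0607 without Hampshire low pig 3 and 0.0515 without Pietrain low pig 5.

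In glycogen metabolism, 2 of the 16 genes tested were called negative (12.5%, beside 4.22% over all genes) and 0 positive, with a median difference of -0.49. Among the called genes was PPP1R3A, which brings protein phosphatase 1 to glycogen in muscle. PPP1R3A had 258, 261 and 232.5 CPM in Hampshire high pigs and 764, 493 and 599 CPM in Hampshire low pigs, with 722 to 1038 CPM in Pietrain pigs. Its difference was -1.11 ± 0.26 (adjusted p 0.0249), with an adjusted p of 0.0504 without Hampshire high pig 10. Of 17 glycolytic enzymes, HK2, the hexokinase that responds to insulin in muscle, was the called member, 5.88% of the list beside 4.22% negative over all genes (difference -1.84 ± 0.46, adjusted p 0.0338). HK2 had 8.51, 2.36 and 7.36 CPM in Hampshire high pigs and 23.2 to 24.5 CPM in Hampshire low pigs, against 11.4 to 19.4 CPM in Pietrain pigs. It was called in 6 of the 13 fits that left out a pig, with an adjusted p of up to 0.0738 without Pietrain low pig 8, and its length-adjusted p was 0.0545.

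Of the AMPK subunits, PRKAB2 (the beta 2 subunit) and PRKAA2 (the muscle catalytic subunit alpha 2) were called, both negative (22.2% of the list, which also holds RYR1, beside 4.22% over all genes). PRKAB2 had 13.3, 12.9 and 9.98 CPM in Hampshire high pigs and 50.5, 37.2 and 25.1 CPM in Hampshire low pigs, and 63.1 to 95.2 CPM in Pietrain pigs. The PRKAB2 difference was -1.76 ± 0.33 (adjusted p 0.00970, length-adjusted p 0.00514). PRKAA2 had a difference of -0.93 ± 0.25 (adjusted p 0.0412) and was called in 3 of the 13 fits that left out a pig, with 0.0760 as the highest adjusted p, without Hampshire high pig 9. PRKAG3, the gamma 3 subunit known for glycogen content in pigs, had 22.5, 14.4 and 10.23 CPM in Hampshire high pigs and 24.2, 29.9 and 32.6 CPM in Hampshire low pigs. Pietrain pigs had 27.0 to 90.4 CPM of PRKAG3, and the difference of -0.87 ± 0.54 was not called (adjusted p 0.374). RYR1 (ENSSSCG00000002961, chr6:42840240-42960106), the calcium release channel known for stress susceptibility in pigs, had 2016, 1351 and 2354 CPM in Hampshire high pigs and 2079, 2765 and 2801 CPM in Hampshire low pigs. Pietrain high pigs had 4632, 3462, 3583 and 4199 CPM and Pietrain low pigs 3147, 3354 and 2786 CPM. The Pietrain high pigs lay above the Pietrain low pigs and the Hampshire groups overlapped, and the difference was -0.78 ± 0.30 (adjusted p 0.140 by edgeR, 0.0802 by DESeq2 and 0.0478 by limma-voom with sample weights).

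UCP3 (ENSSSCG00000014834, chr9:9166711-9179299), the uncoupling protein of muscle mitochondria, showed no called difference between the breeds. It had 176, 321 and 264 CPM in Hampshire high pigs and 42.2, 85.7 and 89.3 CPM in Hampshire low pigs. Pietrain high pigs had 26.6, 53.4, 76.3 and 107 CPM and Pietrain low pigs 29.5, 27.9 and 30.6 CPM. The Pietrain groups overlapped. The Hampshire effect was 1.81 ± 0.41 (adjusted p 0.00833), the Pietrain effect 1.17 ± 0.39 (adjusted p 0.781), and the difference 0.64 ± 0.55 (adjusted p 0.540).

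Genes that build the sarcomere differed in part. SMYD1, the muscle lysine methyltransferase needed for thick filament assembly, had 15.5, 11.8 and 13.8 CPM in Hampshire high pigs and 65.3, 57.3 and 57.5 CPM in Hampshire low pigs. The Pietrain pigs had 46.9 to 90.7 CPM of SMYD1, and the difference was -2.36 ± 0.31 (adjusted p 0.00251). Of 12 titin, M-band and Z-disc genes, 2 were called negative (16.7%, beside 4.22% over all genes), NEB (nebulin, the ruler of the thin filament) and MYPN (myopalladin of the Z-disc). NEB had 2599, 2274 and 2686 CPM in Hampshire high pigs and 6087, 5788 and 6621 CPM in Hampshire low pigs. Its difference was -0.97 ± 0.24 (adjusted p 0.0311, length-adjusted p 0.122), and MYPN had -1.13 ± 0.26 (adjusted p 0.0222). Without Hampshire low pig 3 the adjusted p was 0.0615 for NEB and 0.0556 for MYPN.

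The slow fibre genes had a large median difference of 1.66 and 0 calls among 6 tested, at a smallest adjusted p of 0.448. Summed, they were higher in each Hampshire high pig than in any other pig, with no member called. The sums were 11770 to 17880 CPM in Hampshire high and 2865 to 6656 CPM in Hampshire low pigs. They were 761 to 11250 CPM in Pietrain high and 33.2 to 8349 CPM in Pietrain low pigs. The spread within groups was wide. MYH7, the slow myosin heavy chain, had 6960, 3554 and 5289 CPM in Hampshire high pigs and 1310, 3573 and 2132 CPM in Hampshire low pigs. Pietrain high pigs had 779, 6322, 340.0 and 5804 CPM of MYH7 and Pietrain low pigs 4198, 6.57 and 3037 CPM, so the levels spread widely within each Pietrain group and the groups overlapped. The 9 fast fibre genes had 0 calls and a median difference of 0.26.

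Histone lysine methyltransferases held the largest share of negative calls among the 47 lists. Of 26 tested, 7 were called negative (26.9%, beside 4.22% over all genes) and 0 positive, with a median difference of -0.64. They were KMT2C, KMT2A, SMYD1, NSD1, SETD7, EZH1 and WHSC1L1, and 5 members, SMYD1 without a known length among them, were called with the length trend taken out. WHSC1L1 had a length-adjusted p of 0.0805, and KMT2C could not be tested there. The count lay between 5 and 8 over the fits that left out a pig. KMT2A (ENSSSCG00000023324, chr9:50880742-50910465), a histone H3 lysine 4 methyltransferase, had 2.25, 2.18 and 3.33 CPM in Hampshire high pigs and 16.5, 12.7 and 27.4 CPM in Hampshire low pigs. In Pietrain it had 12.1 to 23.8 CPM in high pigs and 17.2 to 23.3 CPM in low pigs, and the difference was -2.55 ± 0.45 (adjusted p 0.00683, length-adjusted p 0.00611). KMT2C, a related enzyme, had 0.545 to 1.16 CPM in Hampshire high pigs and 7.84 to 8.69 CPM in Hampshire low pigs, with 5.22 to 12.4 CPM in Pietrain (difference -3.43 ± 0.49, adjusted p 0.00278). NSD1, of histone H3 lysine 36, had 16.3 to 18.3 CPM in Hampshire high pigs, 42.4 to 47.5 CPM in Hampshire low pigs and 43.8 to 62.8 CPM in Pietrain pigs (difference -1.27 ± 0.23, adjusted p 0.00751).

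Of 29 tested subunits of mediator, the complex between transcription factors and RNA polymerase II, 4 were called negative (13.8%, beside 4.22% over all genes) and 0 positive, while the median difference of the list was 0.21. The 4 were MED13 and MED13L, which tie the kinase module to the complex, and MED1 and MED23. MED13 (ENSSSCG00000017672) had 2.79, 3.27 and 1.60 CPM in Hampshire high pigs and 18.2, 12.7 and 13.1 CPM in Hampshire low pigs, with 14.3 to 28.9 CPM in Pietrain pigs. The paper lists MED13 under another Ensembl identifier, so its fold changes are not those of the entry given here. The differences were -2.17 ± 0.39 for MED13, -1.42 ± 0.27 for MED1 and -2.04 ± 0.40 for MED23, with length-adjusted p of 0.0117, 0.00829 and 0.0111. The mediator list had at least 4 negative calls in every fit that left out a pig.

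Among 39 nuclear transport receptors and pore proteins, 4 were called negative (TNPO1, TNPO3, XPO7 and XPOT, which are 10.3% of the list beside 4.22% over all genes) and 0 positive, with a median difference of -0.30. TNPO1, an importer of RNA-binding proteins, had 9.81, 3.64 and 4.92 CPM in Hampshire high pigs, 22.8 to 23.96 CPM in Hampshire low pigs and 22.3 to 36.9 CPM in Pietrain pigs. Its difference was -1.76 ± 0.39 (adjusted p 0.0190, length-adjusted p 0.0234). XPO7 had a difference of -0.89 ± 0.21 (adjusted p 0.0228, length-adjusted p 0.113). TNPO3, the importer of SR splicing factors, had -0.95 ± 0.25 (adjusted p 0.0383, length-adjusted p 0.0933) and was called in 6 of the 13 fits that left out a pig, with 0.0736 as its highest adjusted p, without Hampshire high pig 10. The count for the list lay between 2 and 6 in those fits. It was 2 without Hampshire high pig 10, Hampshire low pigs 1 or 2, or Pietrain low pig 8, and 6 without Hampshire high pig 8 or Pietrain high pig 6.

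Of 18 circadian clock genes, CLOCK, RORA and HLF were called negative (16.7%, beside 4.22% over all genes). CLOCK had 0.681, 0.636 and 0.192 CPM in Hampshire high pigs, 2.94 to 3.64 CPM in Hampshire low pigs and 2.22 to 6.32 CPM in Pietrain pigs (difference -2.76 ± 0.61, adjusted p 0.0187). RORA, a nuclear receptor that feeds into the clock, had a difference of -1.40 ± 0.36 (adjusted p 0.0382, length-adjusted p 0.0831) and was called in 5 of the 13 fits that left out a pig. Its highest adjusted p in them was 0.0887, without Hampshire low pig 3. The time of sampling of each pig is not given in the sources used here.

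Genes of protein quality control held few calls. HSPH1, a large heat shock protein, was the only called member of 21 heat shock proteins and small chaperones, 4.76% beside 4.22% negative over all genes. It had 27.99, 34.4 and 18.9 CPM in Hampshire high pigs, 136, 72.6 and 112 CPM in Hampshire low pigs and 58.3 to 117 CPM in Pietrain pigs (difference -2.08 ± 0.40, adjusted p 0.0107, length-adjusted p 0.0202). Of 24 autophagy genes, RB1CC1 and ATG2B were called negative, which is 8.33% of the list. RB1CC1, a subunit of the kinase complex that starts autophagy, had 44.2 to 51.8 CPM in Hampshire high pigs, 119.5 to 127 CPM in Hampshire low pigs and 152 to 218 CPM in Pietrain pigs, with a difference of -1.29 ± 0.23 (adjusted p 0.00729, length-adjusted p 0.00627). ATG2B had -1.41 ± 0.35 (adjusted p 0.0330, length-adjusted p 0.0502) and was called in 7 of the 13 fits that left out a pig, with 0.0695 as its highest adjusted p, without Hampshire high pig 9. GCLC, which limits the synthesis of glutathione, was the called member (4.35%) of 23 antioxidant enzymes, with a difference of -1.25 ± 0.28 (adjusted p 0.0199, length-adjusted p 0.0378). Of 27 proteasome subunits, PSMB1 was called positive and PSMD1 negative, each 3.7% of the list beside 1.68% positive and 4.22% negative over all genes, with differences of 0.88 ± 0.25 and -0.89 ± 0.23. PSMB1 was called in 1 and PSMD1 in 7 of the 13 fits that left out a pig, with highest adjusted p of 0.141, without Pietrain low pig 5, and 0.0675, without Hampshire high pig 9. Their length-adjusted p was 0.0678 for PSMB1 and 0.0339 for PSMD1.

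The extracellular matrix lists held 3 positive calls and 0 negative ones in all, 1 in each of 3 lists (3.85% to 8.33% of a list, beside 1.68% over all genes). PCOLCE2 (ENSSSCG00000011683, chr13:91282140-91367100), an enhancer of procollagen processing, had 14.3, 33.6 and 22.6 CPM in Hampshire high pigs and 4.59, 4.13 and 6.59 CPM in Hampshire low pigs. Pietrain pigs had 4.28 to 6.92 CPM, so the Hampshire high pigs lay above all others, and the difference was 2.15 ± 0.41 (adjusted p 0.00998, length-adjusted p 0.00623). It is a long gene, and its difference was 2.43 with the length trend taken out. FBLN5, an elastic fibre protein, had a difference of 1.82 ± 0.47 (adjusted p 0.0357, length-adjusted p 0.0202) and was called in 4 of the 13 fits that left out a pig, with 0.106 as the highest adjusted p, without Hampshire high pig 9. PODN, a small leucine-rich proteoglycan, had 1.11 ± 0.31 (adjusted p 0.0490) and was called in 2 of these fits, with 0.155 as the highest adjusted p, again without Hampshire high pig 9. The 18 collagen chains tested had 0 calls and a median difference of 0.35, and the 12 small leucine-rich proteoglycans a median of 1.2035.

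Fibroblast markers, when summed, were also higher in each Hampshire high pig than in any other pig, with no member called. The 10 fibroblast markers had 0 calls and a median difference of 1.09, and summed to 954.5 to 2163 CPM in Hampshire high pigs, 389 to 711 CPM in Hampshire low pigs and 401 to 741.5 CPM in Pietrain pigs. Their part in the matrix results was not tested. In such bulk samples more cells of a type and more RNA per cell cannot be told apart. The 17 macrophage and antigen presentation genes had 0 calls and summed to 552 to 630 CPM in Hampshire high pigs, 230 to 372 CPM in Hampshire low pigs and 116 to 325 CPM in Pietrain pigs. Among 10 pericyte and smooth muscle markers, TAGLN and ACTA2 were called positive (1.38 ± 0.33 and 1.32 ± 0.35) and ABCC9 negative (-1.71 ± 0.29). That is 20% and 10% of a short list, beside 1.68% positive and 4.22% negative over all genes. TAGLN and ACTA2, both smooth muscle cytoskeleton genes, were called in 6 and 4 of the 13 fits that left out a pig, with highest adjusted p of 0.0944, without Hampshire high pig 9, and 0.112, without Hampshire high pig 10. Their length-adjusted p was 0.0903 and 0.0502. ABCC9, the regulatory subunit of potassium channels that skeletal muscle fibres also use, had 10.3 to 14.2 CPM in Hampshire high pigs, 36.5 to 40.9 CPM in Hampshire low pigs and 36.0 to 62.4 CPM in Pietrain pigs. The lists for adipocyte, endothelial, erythroid, lymphocyte and nerve genes had 0 calls each by edgeR.

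The high and low pigs lay apart in Pietrain in 4.7% of all tested genes, and in 93 genes (0.725%) they lay apart in both breeds in opposite order. Of these, 33 genes with a symbol were called, 17 with a positive and 16 with a negative difference. The positive ones with the smallest p were RPS20 and NDUFA2, described above, and NTAN1, an amidase that marks proteins for the N-end rule pathway. NTAN1 had 19.5, 24 and 17.6 CPM in Hampshire high pigs and 12.4, 10.7 and 11 CPM in Hampshire low pigs, against 12.7, 12.5, 12.7 and 11.9 CPM in Pietrain high pigs and 15.7, 15.1 and 16.3 CPM in Pietrain low pigs. Its difference was 1.18 ± 0.23 (adjusted p 0.0109, length-adjusted p 0.0377). The negative ones were PIP4K2B, ZNFX1 and THSD4. PIP4K2B, a kinase of phosphatidylinositol 5-phosphate, had 5.86, 5.82 and 4.03 CPM in Hampshire high pigs and 15.8, 17.6 and 15.6 CPM in Hampshire low pigs. It had 30.0, 22.4, 20.2 and 27.2 CPM in Pietrain high pigs and 19.1, 18.7 and 19.5 CPM in Pietrain low pigs (difference -2.03 ± 0.28, adjusted p 0.00251, length-adjusted p 0.00138). ZNFX1, a helicase of antiviral defence, had 1.46 to 2.66 CPM in Hampshire high pigs, 5.82 to 9.72 CPM in Hampshire low pigs, 5.84 to 9.65 CPM in Pietrain high pigs and 4.57 to 5.07 CPM in Pietrain low pigs. THSD4, a protein of matrix microfibrils, had effects of -2.27 in Hampshire and 1.09 in Pietrain, and a difference of -3.36 ± 0.58 (adjusted p 0.00617). The Pietrain effect of none of these genes was called by itself.

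**Figure D5:**
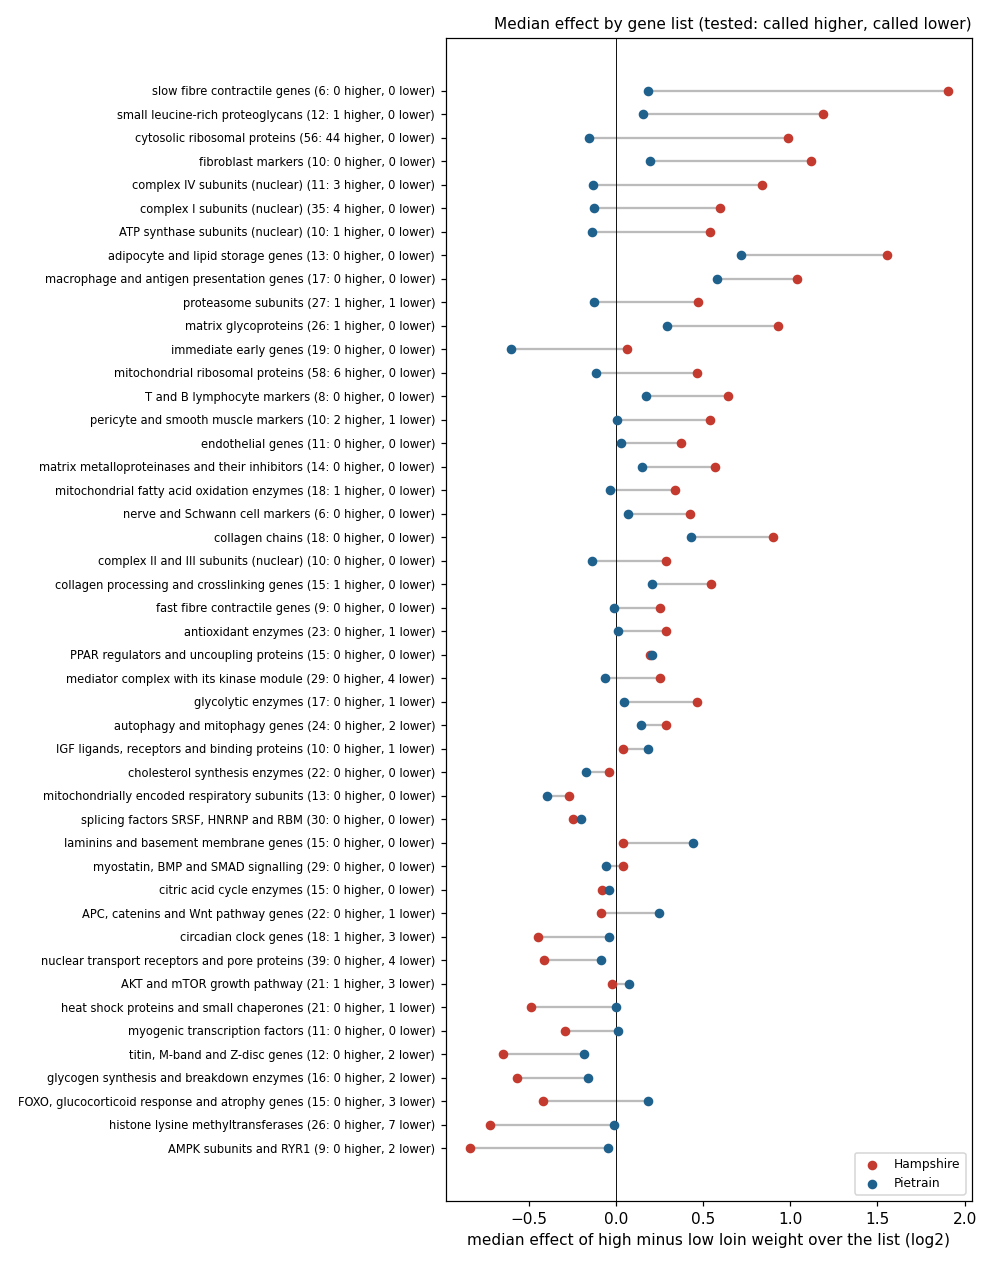
Median Hampshire (red) and Pietrain (blue) effect of high against low weight of loin (log2) over each list with at least 6 tested genes, ordered by the median difference between the breeds, with the number tested and called beside each name. The cytosolic ribosomal proteins have 44 positive calls, and the histone lysine methyltransferases, with 7, have the most negative calls.

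Over the 47 lists, 864 genes were tested, and 33 further members had too few counts to be tested. Of the 864, 67 were called positive and 39 negative, beside 1.68% positive and 4.22% negative over all tested genes. The negative share was thus close to that over all genes, and 44 of the 67 positive calls were cytosolic ribosomal proteins. Lists without a call included splicing factors (30 genes tested), cholesterol synthesis enzymes (22), immediate early genes (19), laminins and basement membrane genes (15), matrix metalloproteinases and their inhibitors (14) and PPAR regulators with uncoupling proteins (15). The lists cover few of the called genes: 548 of the 757 had a symbol and 209 had none. Of those without a symbol, ENSSSCG00000018006 and ENSSSCG00000028800 are given for their small p and were chosen after their values were seen. ENSSSCG00000018006 had 254, 220.2 and 330.0 CPM in Hampshire high pigs, 1430 to 1780 CPM in Hampshire low pigs and 1394 to 2210 CPM in Pietrain pigs, with a difference of -2.88 ± 0.30 (adjusted p 0.00100). ENSSSCG00000028800 had 3.36 to 5.18 CPM in Hampshire high pigs, 90.1 to 105 CPM in Hampshire low pigs and 168 to 465.5 CPM in Pietrain pigs, with a difference of -4.74 ± 0.53 (adjusted p 0.00134).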

How the data were processed

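RNA-seq libraries of longissimus lumborum muscle from 13 pigs were analysed. The authors made TruSeq libraries from total RNA with an integrity number above 7.5, aligned the reads to Sscrofa10.2 and deposited whole-number counts of reads per Ensembl gene, not normalized, in 1 table for each breed. The submitters' processing notes name FastQC, STAR, RSEM and DESeq2, with no version. The authors' tables of fold changes and p-values were not used, except for the symbols and Sscrofa10.2 coordinates they list.

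The 2 count tables held the same 25322 identifiers and were joined on them. Symbols were found for 13168 identifiers, 7066 from the authors' tables and 6102 from a gene name table. Gene length is the span from start to end and was known for 77.74% of the tested genes, so the length trend over all tested genes is void. It was therefore also run over genes with at least 10 counts in every pig, of which 95.62% had a length, a choice made after seeing the data.

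Differences were tested in R 4.3.3 with edgeR 4.0.16 (TMM, filterByExpr by group, quasi-likelihood test, Benjamini-Hochberg adjustment over all tested genes). Each error after ± is a standard error in log2 units. A prior count of 2 was used for log2 CPM in the principal components. Alternatives were DESeq2 1.42.0, limma-voom 3.58.1 with sample quality weights, DESeq2 size factors, no filter, at least 10 counts in every pig, a fold change of at least 1.2, the length trend as an offset (lowess span 0.3), and leaving out each pig in turn. The scripts were tested on simulated data. Plots were made in Python 3.11.15 using matplotlib 3.10.9.

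The comparison and the 47 gene lists were chosen with earlier results of these data known. The genes named were the 12 called genes with a symbol and the smallest p in each direction, up to 3 called members of each list, 3 genes in each direction whose groups lay apart in both breeds in opposite order, and PRKAG3, RYR1 and UCP3. Further called members are named where a list had few calls, and MTOR, MSTN, MYH7, IGF1R and identifiers without a symbol were named after their values were seen. The counts come from 11312755 to 20134612 reads per pig, and reads without molecular identifiers are not independent molecules. Some named genes are not reported here. No sequence is printed.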

Additional observations from a re-analysis of the deposited data

Results flagged for a closer look

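The loin weight effect differed between the breeds in 757 genes by the test of the difference itself. Of the called genes with a symbol whose groups lay apart in both breeds in opposite order, the 3 with the smallest p in each direction were RPS20 (difference 1.31), NDUFA2 (1.40), NTAN1 (1.18), PIP4K2B (-2.03), ZNFX1 (-2.75) and THSD4 (-3.36). Over all 12831 tested genes the groups lay apart in this way in 93 (0.725%), and the Pietrain groups lay apart in 4.7%. The genes listed were picked by the test of the difference, and none had a called Pietrain effect.

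Within the 4 Pietrain high pigs, the only group large enough for a test of a stand-out value, 4 of the 73 named genes had 1 pig far from the others. These were FBXL17 with 26.5 CPM in pig 1, RICTOR with 3.00 CPM in pig 7, FBLN5 with 9.09 CPM in pig 2 and ZNFX1 with 5.84 CPM in pig 6. By chance about 1 in 20 genes would do so, and the 4 values came from 4 different pigs.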

How the results depend on the processing

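For the difference between the breeds, DESeq2 called 1224 genes (447 positive, 777 negative) and limma-voom with sample weights 1674 (645 and 1029), against 757 (215 and 542). DESeq2 called 751 of the 757 and limma-voom 741. Positive calls were 135 with no filter on low counts. With the length trend as an offset there were 450 calls (85 positive, 365 negative) over all tested genes, where the setting is void for want of lengths. There were 495 (103 and 392) over genes with at least 10 counts in every pig. Leaving out each pig in turn gave 379 to 1052 calls, 38 to 326 of them positive and 341 to 797 negative. For the Hampshire effect, limma-voom called 4402 genes, 2124 of them higher, the length trend with at least 10 counts left 630 higher, and leaving out each pig gave 1353 to 3087 calls, 300 to 1128 higher and 1021 to 1959 lower. For the Pietrain effect, DESeq2 called 5 genes, 2 higher and 3 lower, and leaving out each pig gave 0 or 1, the 1 being higher and found without Pietrain low pig 5. No named gene changed direction under any setting run for it. With DESeq2 size factors 742 genes were called, 218 positive and 524 negative, and the median difference over all genes moved from -0.02 to -0.01. No paired analysis was possible because the high and low groups of a breed share no replicate number. With 3 or 4 pigs a group, the fits without 1 pig rest on as few as 2. The cause of these shifts was not tested.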
